A study of Mus musculus with 32 samples.

Results

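Nestin RNA was far more abundant in the captured synaptic regions than in extra-synaptic regions at both ages. Vimentin and nesprin-1 RNA were higher there by smaller factors, with the vimentin call at 10 months dependent on single libraries. They were among 10 genes that code for intermediate filaments, their linker and the proteins that anchor nuclei. The genes were taken by name and comprised the filament proteins nestin (Nes), desmin (Des), vimentin (Vim) and synemin (Synm), the cytolinker plectin (Plec), the nesprins of the outer nuclear membrane (Syne1 and Syne2), the SUN proteins of the inner nuclear membrane (Sun1 and Sun2) and the A-type lamins (Lmna). All 10 were found once among the 24952 genes of the tables, and all 10 were among the 13990 genes that could be tested, each reaching 1 CPM (counts scaled to a common library total) in 8 libraries or more.

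The RNA came from the tibialis anterior (TA) muscle of male, wild type C57BL/6JRj mice aged 10 months (10m) or 30 months (30m), all housed singly on AIN93M diet, for longer in the older mice. Neuromuscular junctions were stained with fluorescent bungarotoxin, and synaptic regions (NMJ) or extra-synaptic regions (xNMJ) of cross sections were cut out by laser, with many regions pooled in each library. Each age and region gave 8 libraries (10m NMJ, 10m xNMJ, 30m NMJ, 30m xNMJ; 32 in all), and no group received a drug or carried a transgene. The labels do not tie libraries to animals, so p values measure the spread between libraries, and libraries of both regions may share an animal. Total counts were deeper in NMJ by their medians, 9605869 against 6062117 at 10 months and 9825357 against 6790011 at 30 months. The lowest total was 4026648 and the highest 16516788, so 3 counts corresponded to 0.182 to 0.745 CPM.

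Intermediate filaments form a rope-like network in the muscle fiber that links the contractile apparatus at the Z-discs to the cell membrane and to nuclei. Nesprins and SUN proteins meet between both nuclear membranes and form the LINC complex, which connects the cytoskeleton to the lamina that A-type lamins build beneath the inner membrane. A few nuclei of each fiber gather under the NMJ, where they are larger and transcribe synaptic genes, and nesprin-1, anchored by SUN proteins, is known to hold nuclei in place there. Nestin is a large filament protein of progenitor cells that adult fibers retain mainly at the NMJ and the tendon end, and terminal Schwann cells and blood vessels can also contain it.

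On GRCm38, in the GENCODE M21 annotation, the 10 protein-coding genes lie on 8 chromosomes. Nes occupies chr3:87971078-87980451 on the plus strand, Vim chr2:13573927-13582826 on the plus strand and Syne1 chr10:5020917-5551482 on the minus strand. No exon of the 10 genes overlapped an exon of another gene among the protein-coding transcripts of support level 1 to 3 in this annotation. For Syne1 that set held 4 transcripts with a longest of 6990 nt, while the longest coding transcript of any support had 27908 nt. The corresponding lengths for Syne2 were 7335 nt and 21704 nt. The set of support level 1 to 3 in this annotation therefore lacked the giant nesprin forms and held only shorter transcripts of both genes. The authors assigned reads with a different annotation release, whose support levels were not examined. Whether reads specific to the giant forms had a transcript to be assigned to was therefore not tested.

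The promoter windows of the members whose RNA differed between regions are shown because the best known synaptic element, the N-box, holds the letters CCGGAA, a core bound by ETS family factors such as GABP. The windows run from 250 bases before to 50 bases after a RefSeq transcript start on GRCm38.p6. They are written on the strand of the gene, and any match to CCGGAA or its reverse TTCCGG is in capitals. For Syne1, both windows that coincide with the start of a transcript of support level 1 to 3 are given. The window named distal lies at the start of the 6990 nt transcript, and the internal one at that of a 3443 nt transcript. A further transcript of 2726 nt starts upstream of both, and no window lay at its start.
Nes, chr3:87970843-87971142, plus strand: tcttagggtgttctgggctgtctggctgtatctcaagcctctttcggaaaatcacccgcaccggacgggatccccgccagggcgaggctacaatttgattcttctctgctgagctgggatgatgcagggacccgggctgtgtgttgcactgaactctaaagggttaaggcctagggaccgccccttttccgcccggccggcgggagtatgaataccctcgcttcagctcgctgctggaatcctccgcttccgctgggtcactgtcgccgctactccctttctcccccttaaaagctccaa
Vim, chr2:13574061-13574360, plus strand: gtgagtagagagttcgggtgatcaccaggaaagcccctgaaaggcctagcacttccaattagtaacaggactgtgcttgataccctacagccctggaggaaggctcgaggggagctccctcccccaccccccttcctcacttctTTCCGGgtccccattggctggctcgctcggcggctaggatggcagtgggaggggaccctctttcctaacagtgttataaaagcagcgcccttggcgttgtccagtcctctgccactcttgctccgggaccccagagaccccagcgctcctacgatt
Syne1, chr10:5550643-5550942, minus strand, distal start: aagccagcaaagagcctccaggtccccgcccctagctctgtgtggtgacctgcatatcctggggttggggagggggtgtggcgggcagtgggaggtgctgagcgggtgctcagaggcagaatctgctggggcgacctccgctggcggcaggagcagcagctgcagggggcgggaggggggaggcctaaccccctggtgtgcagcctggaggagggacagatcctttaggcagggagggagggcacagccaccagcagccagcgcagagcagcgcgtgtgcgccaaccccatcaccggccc
Syne1, chr10:5069014-5069313, minus strand, internal start: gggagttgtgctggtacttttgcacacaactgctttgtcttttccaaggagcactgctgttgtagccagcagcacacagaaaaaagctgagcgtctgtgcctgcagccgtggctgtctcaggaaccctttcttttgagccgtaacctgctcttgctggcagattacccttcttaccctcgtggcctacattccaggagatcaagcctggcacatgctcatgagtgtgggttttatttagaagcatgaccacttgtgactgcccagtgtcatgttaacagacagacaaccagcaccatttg

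The Vim window held 1 match to these letters, at base -106 from its RefSeq start. That start lies 359 nt from the nearest start of a Vim transcript of support level 1 to 3. The windows of Nes and Syne1 held none. RefSeq windows were found for 9 of the 10 members, all but Plec, and numbered 13. Among them 2 held the core, the Vim window and a window of Lmna with 3 matches, 2 of which overlap on opposite strands. Of 32851 windows of this length in the table, 14.9% held the core on either strand. The E-box CAGCTG, a letter sequence of myogenic factor sites that reads the same on both strands, was in 16.3% of all windows and in those of Des, Syne2 and the distal start of Syne1. These are matches of letters and no evidence of binding.

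Before the values, 2 properties of the libraries have to be given. The scaling of xNMJ and NMJ libraries differed. The normalization factors of TMM, a method that aligns the bulk of genes between libraries, had medians of 0.831 in xNMJ and 1.21 in NMJ at 10 months and of 0.765 and 1.25 at 30 months. Without them, on library totals alone, the median of all genes was higher in NMJ by 0.56 at 10 months and 0.61 at 30 months on the log2 scale, and the genes called split into 2667 higher and 210 lower at 10 months and 2692 and 75 at 30 months. With TMM the split was 909 and 706 at 10 months and 700 and 595 at 30 months. Comparisons between groups were therefore made on TMM-normalized CPM. Comparisons between genes were made on the deposited TPM, which divide by transcript length but share the shift of the totals. TPM levels in NMJ and xNMJ should therefore be read against that shift. Reads shared by several transcripts were divided equally before the division by length, so short transcripts can raise the TPM of a gene. In these bulk samples fewer cells of a type and less RNA per cell cannot be told apart.

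In addition, 1 extra-synaptic library stood apart. The library labeled 30m xNMJ replicate 5 held Chrne, the adult epsilon subunit of the acetylcholine receptor, at 78.5 TPM, whereas the other 7 libraries of its group held 0 to 0.384 TPM. Its Nes was 325 CPM, and the next highest of the group was 35.9 CPM. Its summed Schwann cell markers were 11.3 TPM, above the 1.39 to 5.93 TPM of the other 7 but far under the NMJ libraries of its age, the lowest of which had 91.3 TPM. How synaptic RNA came to be in this library was not tested. Results of 30 months that depend on it are given with and without it.

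**Figure D1:**
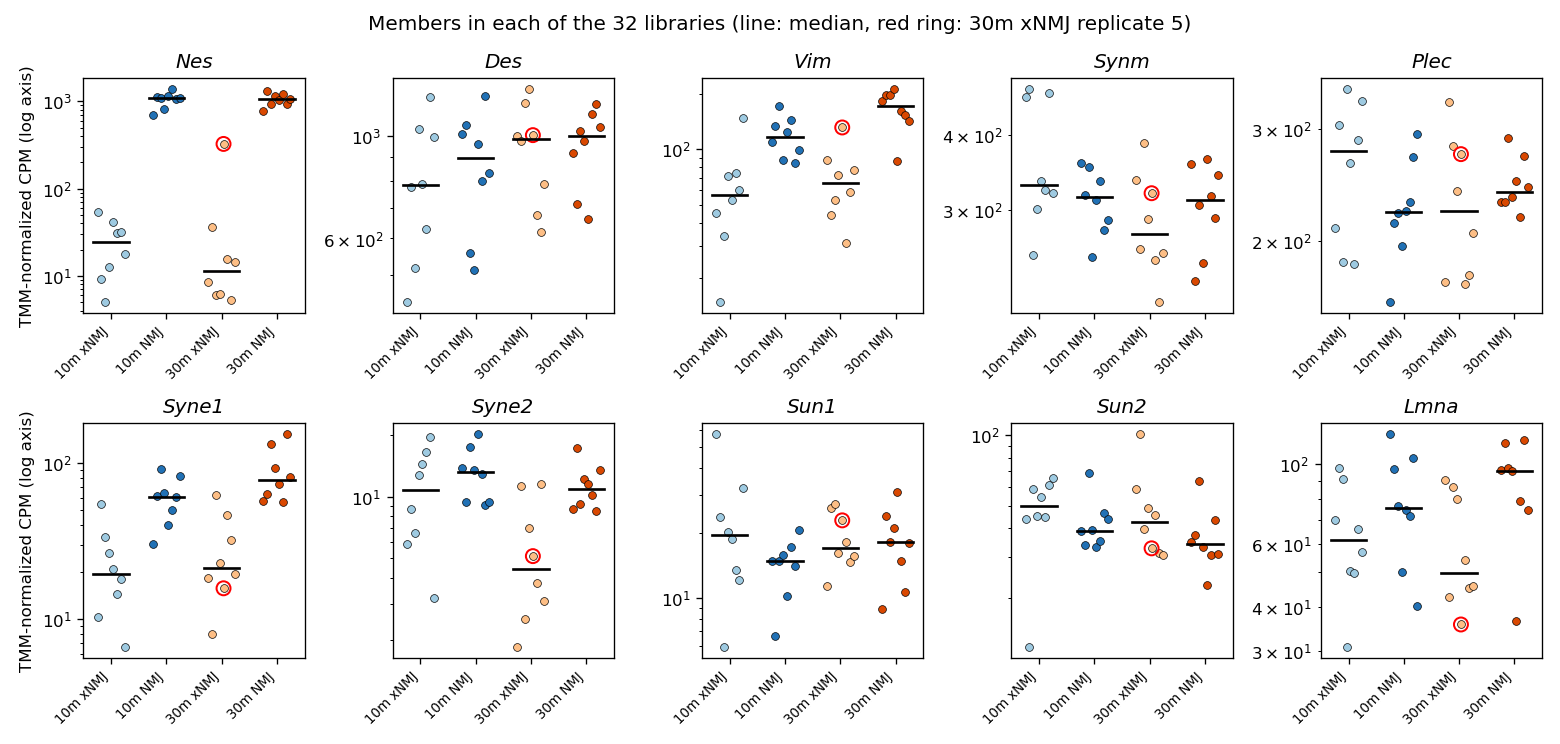
TMM-normalized CPM (log axes with a range of their own) of the 10 members in each library, by group. Points are libraries, lines are medians of 8, and a red ring marks 30m xNMJ replicate 5. Only Nes separated NMJ from xNMJ libraries at both ages, with medians of 1089 against 24.3 CPM at 10 months and 1053 against 11.3 CPM at 30 months.

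Nes ranged from 698 CPM through a median of 1089 CPM to 1383 CPM in 10m NMJ, and from 4.96 through 24.3 to 53.8 CPM in 10m xNMJ. In 30m NMJ its lowest, median and highest values were 782, 1053 and 1327 CPM, and in 30m xNMJ 5.29, 11.3 and 325 CPM. Every NMJ library exceeded every xNMJ library of its age, even replicate 5, and the NMJ libraries of both ages covered the same range. Against xNMJ, the log2 fold change was 5.38 ± 0.71 (SE) at 10 months, a 41.7-fold difference (edgeR quasi-likelihood test, adjusted p = 1.84e-06), and 4.32 ± 0.68 at 30 months, a 20.0-fold difference (edgeR, adjusted p = 3.77e-05). Without 30m xNMJ replicate 5 the 30-month value was 6.32 ± 0.46, or 80.1-fold (edgeR, adjusted p = 9.70e-12).

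Vimentin, the filament protein of mesenchymal cells and of regenerating fibers, ranged from 84.6 through a median of 117 to 173 CPM at 10 months in NMJ, whereas xNMJ libraries ran from 14.8 through 56.7 to 147 CPM. In 30m NMJ it lay between 86.0 and 212 CPM with a median of 172 CPM, and in 30m xNMJ between 30.9 and 131 CPM with a median of 65.7 CPM. All 8 NMJ libraries were above the xNMJ median at each age, but the groups overlapped, since 10m xNMJ replicate 8 and 30m xNMJ replicates 1 and 5 reached into the NMJ range. The difference was 0.93 ± 0.30 on the log2 scale (1.91-fold) at 10 months (edgeR, adjusted p = 0.0352) and 1.26 ± 0.30 (2.39-fold) at 30 months (edgeR, adjusted p = 0.00451). Without 30m xNMJ replicate 5 the 30-month value was 1.46 ± 0.30, or 2.74-fold (edgeR, adjusted p = 0.00103). At 10 months the call depended on single libraries. It was lost when replicate 2, 3, 5 or 6 of 10m NMJ or replicate 1, 2, 3, 5 or 7 of 10m xNMJ was left out, with log2 fold changes of 0.78 to 0.92 and adjusted p values of 0.0514 to 0.0780, and also with insert size as a covariate (log2 fold change 0.82, edgeR, adjusted p = 0.109) or with the 10-month groups fitted alone (0.93, edgeR, adjusted p = 0.0658). Insert size differed between regions by its medians, 93.5 nt in 10m xNMJ and 117.5 nt in 10m NMJ, so that covariate is partly confounded with region. Over all genes it lowered the calls at 10 months from 1615 to 1135 (edgeR). At 30 months leaving out any 1 library kept the Vim call.

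Desmin, the main filament protein of mature muscle, had medians of 782 CPM (xNMJ) and 895 CPM (NMJ) at 10 months and of 986 and 999 CPM at 30 months, and its groups overlapped almost fully. Its region differences were 0.12 ± 0.20 at 10 months (edgeR, adjusted p = 0.780) and 0.02 ± 0.20 at 30 months (edgeR, adjusted p = 0.968) on the log2 scale. The 95% intervals with TMM ran from -0.28 to 0.52 and from -0.37 to 0.42, and the estimates of Nes, Vim and Syne1 lay outside them. The Vim interval at 10 months, from 0.35 to 1.51, overlapped that of Des, and the genes were not tested against each other. Synemin, which copolymerizes with desmin and vimentin, had medians between 273 CPM (30m xNMJ) and 329 CPM (10m xNMJ), with differences of -0.24 ± 0.15 at 10 months and 0.09 ± 0.15 at 30 months. Plectin, which ties desmin to Z-discs, membranes and nuclei, had medians between 222 CPM (10m NMJ) and 276 CPM (10m xNMJ), with differences of -0.22 ± 0.16 and 0.09 ± 0.16. Neither Synm nor Plec passed the test at either age (edgeR, adjusted p of 0.366 to 0.827). On library totals alone Des passed as higher in NMJ at both ages and Synm and Plec at 30 months, each close to the shift of the median of all genes. At 30 months all 3 also passed in limma on both log2 TPM scales. Des at 10 months passed in 3 of 9 alternatives of the processing.

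Nesprin-1 (Syne1) ranged from 30.5 through a median of 60.9 to 92.1 CPM at 10 months in NMJ, whereas xNMJ libraries ran from 6.59 through 19.4 to 54.6 CPM. In 30m NMJ the values were 56.3, 77.4 and 153 CPM, and in 30m xNMJ 8.0, 21.2 and 62.3 CPM. At 10 months 5 of 8 NMJ libraries, and at 30 months 6 of 8, were above the highest xNMJ library of their age, so the groups overlapped. The log2 fold change was 1.38 ± 0.37 (2.60-fold) at 10 months (edgeR, adjusted p = 0.00952) and 1.66 ± 0.37 (3.16-fold) at 30 months (edgeR, adjusted p = 0.00248). Without 30m xNMJ replicate 5, which held 15.8 CPM, the latter was 1.57 ± 0.38 (edgeR, adjusted p = 0.00502).

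Nesprin-2 (Syne2), the second large nesprin, was a low-count gene, with 9 to 251 counts in a library. Its lowest, median and highest values were 9.06, 13.2 and 20.1 CPM at 10 months in NMJ and 3.21, 10.7 and 19.4 CPM in xNMJ, which overlapped. The corresponding values were 8.55, 10.8 and 17.2 CPM in 30m NMJ and 1.85, 4.46 and 11.5 CPM in 30m xNMJ. There all 8 NMJ libraries lay above the xNMJ median and 3 above the highest xNMJ library. The region difference was 0.27 ± 0.36 at 10 months (edgeR, adjusted p = 0.719) and 0.97 ± 0.37 at 30 months (edgeR, adjusted p = 0.0996), and the latter passed when replicate 2 (1.18, edgeR, adjusted p = 0.0441) or replicate 7 (1.19, edgeR, adjusted p = 0.0399) of 30m xNMJ was left out. It also passed on library totals alone and in limma on both log2 TPM scales. With the replicate number, shared by both ages, as a block it passed as well (1.15, edgeR, adjusted p = 0.0476).

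The SUN proteins, which bind the nesprins from inside, did not pass the test in either comparison. Sun1 medians were 19.5 CPM (xNMJ) and 14.8 CPM (NMJ) at 10 months and 17.1 and 18.1 CPM at 30 months, with differences between regions of -0.68 ± 0.33 at 10 months (edgeR, adjusted p = 0.214) and -0.05 ± 0.33 at 30 months (edgeR, adjusted p = 0.955). For Sun2 the medians were 49.7, 39.0, 42.5 and 34.0 CPM in the same order, with differences of -0.19 ± 0.27 (edgeR, adjusted p = 0.736) and -0.39 ± 0.27 (edgeR, adjusted p = 0.451). The signs of Sun2 at both ages and of Sun1 at 30 months turned positive on library totals alone.

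A-type lamin RNA (Lmna) had medians of 61.4 CPM (xNMJ) and 75.5 CPM (NMJ) at 10 months and of 49.8 and 95.9 CPM at 30 months. At 30 months 5 of the 8 NMJ libraries were above the highest xNMJ library, whereas NMJ replicate 5, at 36.6 CPM, was near the bottom of the xNMJ range of 35.7 to 90.0 CPM. The differences were 0.31 ± 0.25 at 10 months (edgeR, adjusted p = 0.514) and 0.57 ± 0.25 at 30 months (edgeR, adjusted p = 0.185), and neither passed. Without 30m xNMJ replicate 5 the 30-month difference was 0.49 ± 0.26 (edgeR, adjusted p = 0.262). With all libraries both differences passed on library totals alone, and the 30-month difference also passed in limma on both log2 TPM scales.

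Thus 3 of the 10 members, Nes, Vim and Syne1, were called higher in NMJ at each age and 0 lower. The call of Vim at 10 months depended on single libraries, as given above. Over all 13990 genes tested, 11.5% were called in either direction at 10 months and 9.26% at 30 months, and 6.5% and 5% were called higher in NMJ. Nes alone had groups that did not overlap in CPM, as did 2.22% of all genes at 10 months and 1.96% at 30 months, counting those with every NMJ library above every xNMJ library. The median log2 fold change of the members was 0.19 at 10 months, where that of all genes was 0.0036, and 0.33 at 30 months, where it was -0.014.

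**Figure D2:**
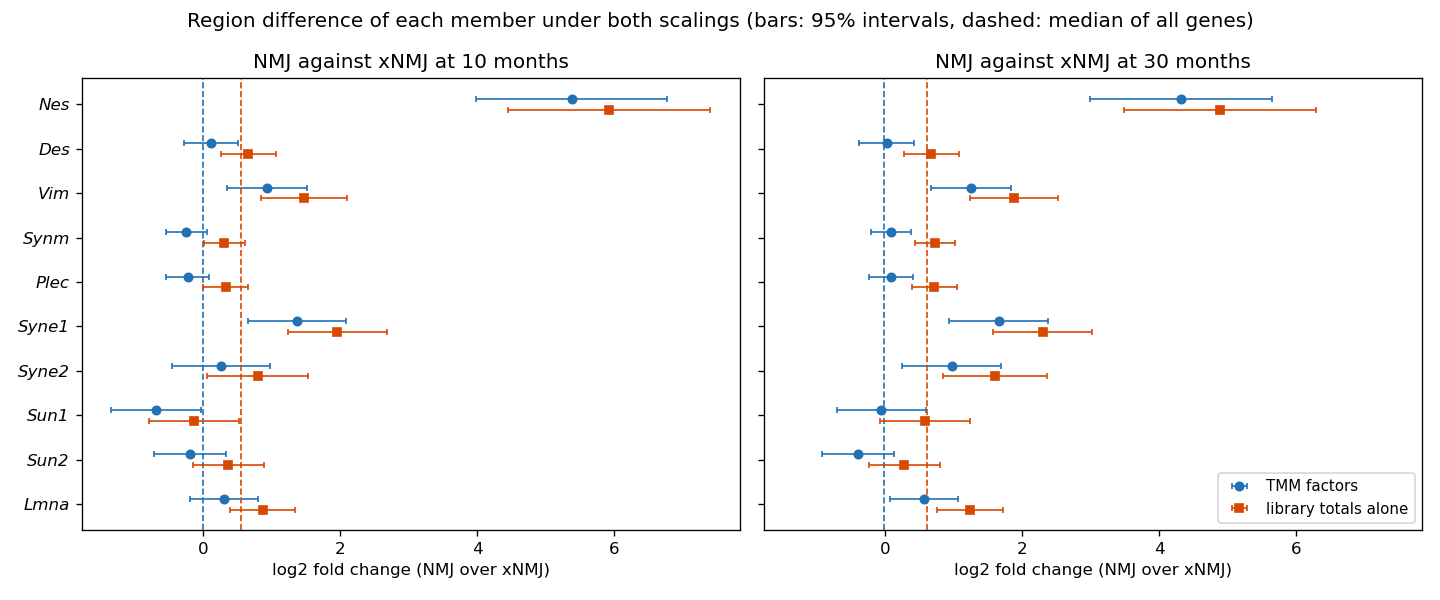
Log2 fold change of each member between NMJ and xNMJ at 10 months (left) and 30 months (right), with TMM factors (circles) and on library totals alone (squares). Bars are 95% intervals, and dashed lines mark the median of all genes under each scaling, 0.56 and 0.61 for library totals at 10 and 30 months. The whole intervals of Nes, Vim and Syne1 lie to the right of that median at both ages under both scalings, those of Syne2 and Lmna at 30 months only, and that of Sun1 lies to the left at 10 months.

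No member was called between ages. In NMJ regions 0 of the 10 members passed, and 0% of all genes were called by edgeR (372 of the 13990 genes and 0 of the members at an unadjusted p under 0.05, with 1 gene called by DESeq2 and 3 by limma on log2(TPM + 1)). The changes from 10 to 30 months in NMJ ranged from -0.22 ± 0.36 for Syne2 to 0.56 ± 0.36 for Syne1, and Nes changed by 0.0060 ± 0.59 on the log2 scale, with an interval from -1.15 to 1.16. Without 30m xNMJ replicate 5 it was 0.0054 ± 0.34. The change of Vim was 0.48 ± 0.29.

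In xNMJ regions 0 of the 10 members passed the test between ages and 0.0429% of all genes were called by edgeR, 5 higher and 1 lower at 30 months, whereas DESeq2 called 51 higher and 33 lower. The edgeR count of 6 genes fell to 0 without replicate 2, 3 or 5 of 10m xNMJ or replicate 2 of 30m xNMJ (1230 to 1347 genes at an unadjusted p under 0.05), and to between 1 and 3 without replicate 1, 4 or 6 of 10m xNMJ or replicate 5 of 30m xNMJ. It was also 0 with the replicate block, with the xNMJ groups fitted alone and in limma on both log2 TPM scales (803 to 1023 genes at an unadjusted p under 0.05). Before adjustment 2 members were under the threshold, as were 1322 of the 13990 genes, and both members had lower values at 30 months. They were Syne2, with -0.92 ± 0.37 (edgeR, adjusted p = 0.402), and Synm, with -0.35 ± 0.15 (edgeR, adjusted p = 0.438). The Nes difference of 1.06 ± 0.61 (edgeR, adjusted p = 0.607) turned to -0.94 ± 0.38 (edgeR, adjusted p = 0.359) without replicate 5 of 30m xNMJ, and its direction thus rests on that library. The test of whether the region difference itself changed with age called 0 members and 0% of all genes by edgeR (708 of the 13990 genes and 0 of the members at an unadjusted p under 0.05, with 9 genes and 0 of the members called by DESeq2). For Syne2 this interaction was 0.71 ± 0.52. For Vim it was 0.33 ± 0.42, or 0.53 ± 0.41 without replicate 5 of 30m xNMJ. For Nes it was -1.06 ± 0.84, or 0.94 ± 0.51 without that library.

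Levels of different genes were compared in TPM. In both xNMJ groups Des was the highest member, with medians of 286 TPM at 10 months and 320 TPM at 30 months, and its libraries did not overlap with those of Synm, the next, at 65.0 and 47.1 TPM. Nes was the ninth there, with 4.01 and 2.10 TPM, and Syne2 the lowest, with 3.55 and 1.33 TPM. In NMJ regions Nes was second, with medians of 258 TPM at 10 months and 278 TPM at 30 months, after Des with 447 and 563 TPM, and both overlapped at each age. Vim followed, with 102 and 172 TPM. Neighboring genes in the order overlapped in every group, except Des and Synm in both xNMJ groups.

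**Figure D3:**
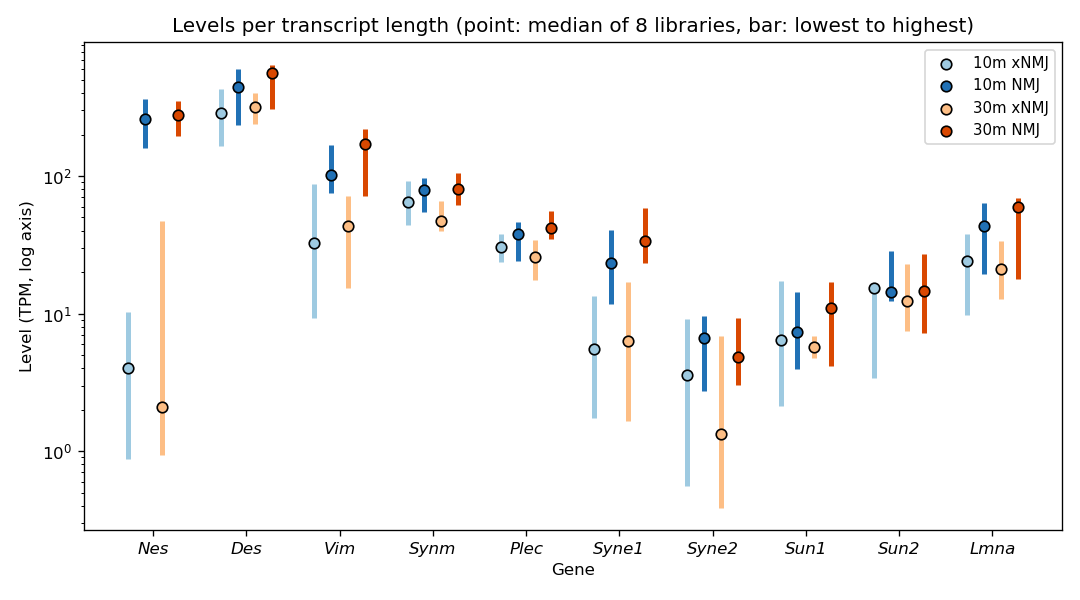
Levels of the members in TPM (log axis), with the median of 8 libraries as a point and a bar from the lowest to the highest library in each group. Des was highest in each group, and Nes moved from 4.01 TPM in 10m xNMJ to 258 TPM in 10m NMJ, next to Des.

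Ratios between members within a library do not depend on how libraries are scaled, and are given as a description. They are ratios of TPM and not of transcript numbers, since reads were divided over transcripts of unlike length. Syne2 in 10m xNMJ had 14.5 CPM and 9.15 TPM in replicate 5 but 19.4 CPM and 4.65 TPM in replicate 7. The ratio of Nes to Vim was 2.41 in 10m NMJ (median, from 1.73 to 3.30) and 1.79 in 30m NMJ (from 1.17 to 2.99). In xNMJ it was 0.150 at 10 months (from 0.0309 to 0.311) and 0.0413 at 30 months (from 0.0216 to 0.649). The last value was that of replicate 5, and the next highest was 0.297. The regions did not overlap in this ratio, with Nes above Vim in all 16 NMJ libraries and under it in all 16 xNMJ libraries. The ratio of Vim to Des had medians of 0.111 (xNMJ) and 0.246 (NMJ) at 10 months and of 0.132 and 0.305 at 30 months, with overlap between regions at both ages. Syne1 exceeded Syne2 by the medians 1.53-fold (xNMJ) and 4.55-fold (NMJ) at 10 months and 4.76-fold and 6.46-fold at 30 months, but single libraries ran from 0.522 to 19.0. Sun2 exceeded Sun1 between 1.48-fold and 2.19-fold by the group medians, and Des exceeded Plec between 9.43-fold and 12.6-fold.

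**Figure D4:**
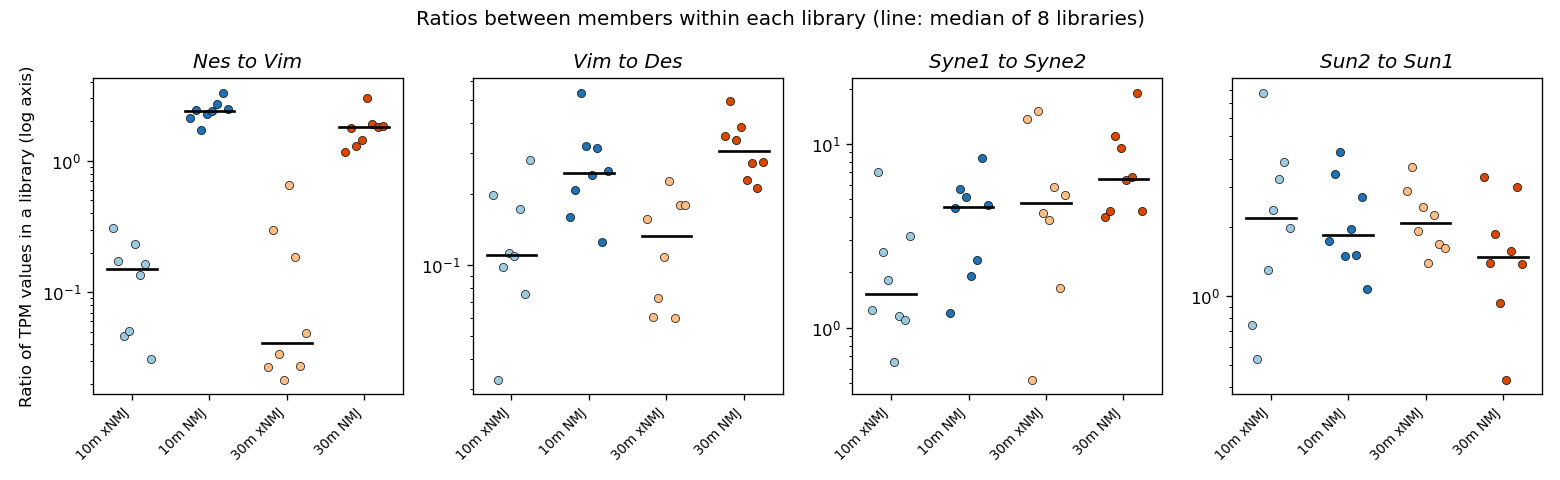
Ratio of the TPM values of 4 gene pairs within each library (log axes with a range of their own), by group, with lines at the medians of 8 libraries. The ratio of Nes to Vim separates NMJ from xNMJ libraries at both ages, with medians of 2.41 against 0.150 and 1.79 against 0.0413, and the other ratios overlap between regions.

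The genes whose log2 CPM followed each member most closely over the 32 libraries were named as a description, since the libraries share region, age and depth. For Nes these were Prkar1a, a regulatory subunit of protein kinase A, with Pearson r = 0.979 (n = 32 libraries), Gprc5c with r = 0.967 and periaxin (Prx), a myelin protein of Schwann cells, with r = 0.963. Prkar1a ranged from 1212 to 2309 CPM at 10 months in NMJ and from 27.4 to 118 CPM in xNMJ, and in 30m xNMJ replicate 5 it reached 443 CPM, where the next was 53.1 CPM. For Syne1 the closest were the receptor kinase Musk (r = 0.824) and the acetylcholine receptor subunit Chrnb1 (r = 0.823), followed by P4hb (r = 0.822). Vim followed S100a6 (r = 0.806), Zyx (r = 0.791) and Sertad1 (r = 0.787).

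The closest genes of the other members had lower r values. Des was closest to Rps19, Cacng1 and Mknk2, Synm to Shisa4, Faf1 and Casq1, Plec to Ttc1, Pam16 and Eif4g1, Syne2 to Usp1, Kin and Enpp2, Sun1 to Akap9, Gm17484 and Pmpcb, Sun2 to Tns1, C1qtnf9 and Slc25a28, and Lmna to Fam129c, Adamts18 and Orai1, with r between 0.613 and 0.784. Among the members themselves the closest pair was Nes and Vim (r = 0.734).

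**Figure D5:**
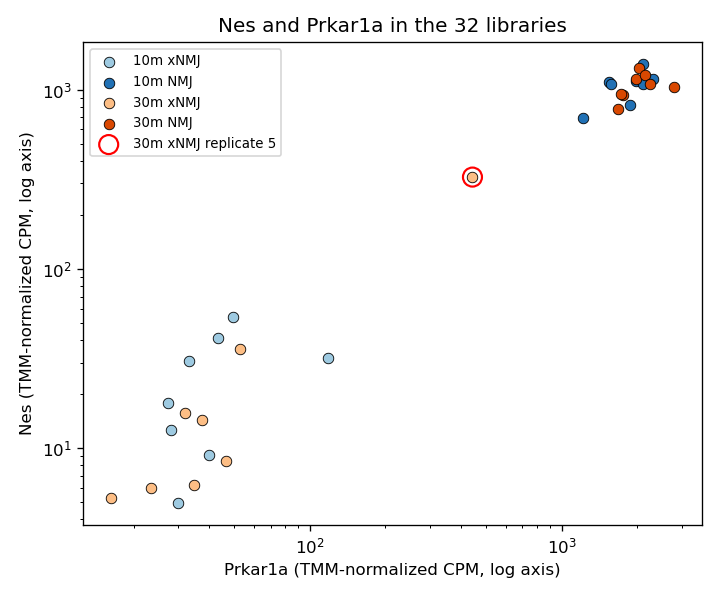
Nes against Prkar1a, the gene that followed it most closely, in TMM-normalized CPM (log axes) in the 32 libraries. NMJ libraries of both ages form 1 group at the upper right and xNMJ libraries lie at the lower left, with 30m xNMJ replicate 5 (red ring) between them at 325 and 443 CPM.

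Of 62 further genes of these systems, put in 4 lists, 61 were in the tables and 45 were tested. At 10 months 4 were higher and 2 lower in NMJ, and at 30 months 6 were higher and 3 lower. Neither age comparison called any of them (edgeR). The 4 tested of 14 other intermediate filament genes (Krt7, Krt18, Iffo1 and Iffo2) were not called with TMM (edgeR), whereas on library totals alone 3 were higher in NMJ at 10 months and 1 at 30 months. The other 10, including the neurofilament genes, peripherin and Gfap, had too few counts to be tested, with medians of at most 0.882 TPM in each group.

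Among 20 other genes of lamins, the LINC complex and the nuclear envelope, 16 were tested and none was called at 10 months by edgeR with TMM. On library totals alone 3 were higher at 10 months and 2 at 30 months, and none lower. At 30 months emerin (Emd), a membrane protein that binds lamin A, was lower in NMJ by -0.56 ± 0.14 (edgeR, adjusted p = 0.00509), but on library totals alone its difference was 0.083 ± 0.13 (edgeR, adjusted p = 0.696), and Nrm was higher, though with a median of 0 TPM in 30m xNMJ and 0.456 TPM in 30m NMJ. Both were named after their values were seen. The remaining SUN, nesprin and lamin genes Sun3, Syne3, Syne4 and Lmnb1 were too low to be tested, and Lmnb2 was not called.

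Cytolinkers and partners of desmin had 2 genes higher and 2 lower at 10 months and 3 higher and 2 lower at 30 months among 9 tested of 12. Utrophin (Utrn), the homolog of dystrophin at the synaptic membrane, was higher by 1.95 ± 0.32 at 10 months and 2.44 ± 0.32 at 30 months, and Macf1, a spectraplakin that joins microtubules to actin, by 1.75 ± 0.36 and 1.41 ± 0.35. Dystonin (Dst), another spectraplakin, was lower by -1.74 ± 0.38 and -1.62 ± 0.38, and dystrophin (Dmd) by -0.58 ± 0.17 and -0.63 ± 0.17 (edgeR, adjusted p under the threshold for all 4 genes at both ages). On library totals alone 5 genes of the list were higher and 1 lower at 10 months, and 3 higher and 0 lower at 30 months. Utrn and Macf1 kept their calls, whereas Dst was at -1.17 and -0.93, past the threshold at 10 months only, and Dmd at -0.024 and -0.014, with no call (edgeR, adjusted p of 0.943 and 0.966). Eppk1 was not analyzed here.

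Among 16 genes that move or place nuclei in fibers, all tested, 2 were higher and 0 lower at each age. On library totals alone, where the median of all genes also rises, 9 were higher at 10 months and 8 at 30 months. Both called with TMM were Akap6, which codes for an anchor of kinases and microtubules at the nuclear envelope and binds nesprin-1, with 0.82 ± 0.27 at 10 months and 0.95 ± 0.27 at 30 months, and dynamin 2 (Dnm2), with 1.11 ± 0.30 and 1.27 ± 0.30.

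Marker genes are given as a description beside the region labels, since their lists were chosen with earlier results of these data known. Of 9 synaptic region markers in the tables, 8 were higher and 1 lower in NMJ at both ages. By mean TPM the most abundant were Prkar1a, with medians of 12.9 TPM in 10m xNMJ and 863 TPM in 10m NMJ, Lrp4, the lower one, with 594 and 224 TPM, Chrne, with 0 and 470 TPM, and Chrna1, with 5.52 and 181 TPM. Of 8 muscle fiber markers, 0 were higher in NMJ at either age, 4 were lower at 10 months and 5 at 30 months. On library totals alone these fiber markers still had negative values but none was called (edgeR, adjusted p of 0.0826 to 0.675). The most abundant, the fast troponin T gene Tnnt3, had medians of 32384 TPM in 10m xNMJ and 24072 TPM in 10m NMJ. Ufsp1 was not analyzed here.

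Markers of other cells that can express Vim, Nes or Lmna also differed between regions. For Schwann cells 6 of 7 markers tested were higher at both ages and none lower. Their summed level had medians of 6.11 TPM (xNMJ) and 167 TPM (NMJ) at 10 months and of 4.58 and 141 TPM at 30 months, with Gfap at a median of 0 TPM in each group. For fibroblasts 5 of 6 were higher at 10 months and 4 at 30 months, with sums of 72.1, 811, 92.6 and 774 TPM in the same order and Dcn the most abundant. For macrophages 4 of 6 and 3 of 6 were higher (6 and 3 on library totals alone), with sums of 3.73, 73.6, 6.60 and 74.0 TPM and C1qb the most abundant. The part of these cells in the higher Nes, Vim and Syne1 values was not tested.

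Endothelial markers did not share that direction. Of 6, 0 were higher in NMJ, 1 was lower at 10 months and 2 at 30 months, with no call on library totals alone (edgeR, adjusted p of 0.165 to 0.484), Flt1 the most abundant and summed medians between 31.2 and 44.7 TPM. Of 6 pericyte and smooth muscle markers 1 was higher at each age, the proteoglycan gene Cspg4, and 1, Rgs5, was lower at 30 months though not on library totals alone (edgeR, adjusted p = 0.581), with Rgs5 the most abundant and summed medians between 40.4 and 61.6 TPM. Of 4 muscle stem cell markers tested only Sdc4, which other cells also express, was higher at both ages (edgeR), and Pax7, the defining one, had medians of at most 0.287 TPM in each group, with Myf5 and Calcr too low to be tested.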

How the data were processed

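RNA of captured NMJ and xNMJ regions was sequenced by the authors from a SMART-Seq v4 library with unstranded single-end reads. They trimmed reads with Cutadapt 1.9.1 and assigned them with kallisto 0.43.1 to protein-coding transcripts of Ensembl release 92 (GRCm38, support level 1 to 3), with reads shared by several transcripts divided equally. The deposited counts are whole numbers summed per gene by the authors, without normalization. The deposited TPM divide these assignments by transcript length, per library total, as the authors describe.

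Groups came from the sample titles. Tests used edgeR 4.0.16 (R 4.3.3). Genes had to reach 1 CPM in 8 libraries, TMM factors were applied, and 1 quasi-likelihood model without a block was fitted to the 4 groups. Two-sided p values were corrected over the 13990 genes (Benjamini-Hochberg), with a threshold of 0.05. Standard errors were log2 fold changes divided by the root of the F statistic. Reads carried no molecular identifiers, so they are not independent molecules. Alternatives were DESeq2 1.42.0 and limma 3.58.1 on log2(TPM + 1) or log2(TPM + 0.1), other scalings, no filter, insert size, only the compared groups, a replicate block, and leaving out each library.

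All 10 members were named, the 3 genes with the highest r for each (log2 CPM, prior count 2), and up to 4 genes of each list, those of highest mean TPM from the region and fiber markers, and from the 4 lists of related genes those with the smallest p at 10 months among genes past the threshold at both ages. Other genes were named for their family (lamins, nesprins, filaments), as the most abundant or defining marker of a cell type, or after their values were seen (Emd, Nrm, Cspg4, Rgs5, Sdc4, Cryab and Flnc). The scaling of list genes on library totals was added after seeing the data. Members and lists were chosen with earlier results of these data known. Scripts were tested on simulated data. There the edgeR test recovered 99 of 200 genes changed by 2 on the log2 scale in 10m NMJ, with 1 false call. The lack of a call is therefore no evidence that a gene did not change. Of the identifiers, 24918 of 24952 were found in GENCODE M21.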

Additional observations from a re-analysis of the deposited data

Results flagged for a closer look

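In 5 of the 40 combinations of member and group, 1 library of the 8 lay apart from the others by more than the 95% limit of a gap test, on log2(TPM + 1), and chance alone flags about 1 in 20. Nes in 30m xNMJ replicate 5 was at 5.58 (46.8 TPM), where the next library was at 2.62. The same library held Chrne, as given above. Sun2 was at 2.14 (3.40 TPM) in 10m xNMJ replicate 2, where the next was at 3.47, and at 4.89 (28.6 TPM) in 10m NMJ replicate 3, where the next was at 4.18. Lmna was at 3.42 (9.72 TPM) in 10m xNMJ replicate 4, where the next was at 4.45, and at 4.24 (17.9 TPM) in 30m NMJ replicate 5, where the next was at 5.44. The causes were not tested.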

How the results depend on the processing

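Under the 9 alternatives, 381 of the 440 log2 fold changes of members kept their direction and their side of the threshold, 20 passed newly, 2 no longer passed (both Vim at 10 months, values in the report) and 37 turned sign. Nes and Syne1 in both region comparisons and Vim at 30 months passed under each. The number of members called in the region comparison was 5 at 10 months and 8 at 30 months on library totals alone, and 8 at 30 months in limma on both log2 TPM scales. Of the 13990 genes, 2877 and 2767 were called on library totals at 10 and 30 months, and in limma at 30 months 3561 with log2(TPM + 1) and 3681 with log2(TPM + 0.1), nearly all higher in NMJ (3501 and 3627).

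Signs turned as follows, none with a call. On library totals alone Synm (0.31), Plec (0.33) and Sun2 (0.37) at 10 months and Sun1 (0.58) and Sun2 (0.28) at 30 months turned positive between regions, Sun2 between ages in xNMJ turned to -0.075 and the Des interaction to 0.012. In limma on log2(TPM + 1) the region values were 0.24 for Synm, 0.25 for Plec, 0.26 for Sun1 and 0.34 for Sun2 at 10 months and 0.69 for Sun1 and 0.21 for Sun2 at 30 months. Between ages Synm in NMJ was at 0.061 and Nes in xNMJ at -0.16, and the interactions of Nes and Des were 0.28 and 0.052. With log2(TPM + 0.1) the same 10 values were 0.24, 0.26, 0.31, 0.37, 0.75, 0.23, 0.062, -0.28, 0.41 and 0.051. The median of all genes between regions was 0.56 and 0.61 at 10 and 30 months on library totals, 0.37 and 0.49 with log2(TPM + 1) and 0.57 and 0.73 with log2(TPM + 0.1). Nes between ages in NMJ turned to -0.025 with DESeq2, -0.025 with its size factors, -0.0083 with only the compared groups, -0.074 with insert size and -0.00081 without the filter. Des at 30 months was -0.0026 with insert size and Sun1 at 30 months 0.0020 without the filter.

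The labels do not say that a replicate number marks an animal, and the numbers were not taken as pairs, since r of the deviations did not exceed 0.1 in every pair with the same number. Over 16 such pairs r ran from -0.018 to 0.366 and 5 exceeded 0.1. The mean r was 0.085, against -0.012 for other numbers, and 8 of 16 matched best with their own number, a hint of some pairing from the data, not from the design. With the replicate block, 1667 genes were called at 10 months and 1388 at 30 months, Syne2 passed at 30 months (1.15, edgeR, adjusted p = 0.0476), and Nes and Sun2 between ages in xNMJ (-0.083 and -0.0020) and the Nes interaction (0.11) turned sign.

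With 1 of the 32 libraries left out, 3 to 4 members were called at 30 months and 2 to 3 at 10 months, and 0 in the other comparisons. Of 13855 to 13966 genes tested, 1100 to 1476 were called at 30 months and 1420 to 1705 at 10 months. Between ages 0 genes were called in NMJ and 0 to 7 in xNMJ, and 0 to 1 in the interaction. Ranges that crossed 0 were, between regions at 30 months, Des (-0.047 to 0.095) and Sun1 (-0.20 to 0.049), between ages in NMJ, Nes (-0.072 to 0.072) and Synm (-0.067 to 0.026), between ages in xNMJ, Nes (-0.94 to 1.31), Vim (-0.045 to 0.46), Sun1 (-0.41 to 0.075), Sun2 (-0.23 to 0.087) and Lmna (-0.20 to 0.018), and in the interaction, Nes (-1.30 to 0.94), Syne1 (-0.029 to 0.56) and Sun2 (-0.36 to 0.041). The lowest count of a member in a library was 9, for Syne2.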

Other observations

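The small heat shock protein gene Cryab, a chaperone of desmin, stood at 17649 TPM in 10m NMJ replicate 7, whereas the next library of that group had 3198 TPM and the group median was 2002 TPM. In the same library Flnc, the filamin that binds at Z-discs, was at 176 TPM, with the next at 62.8 TPM. Des was at 602 TPM there, the highest of its group. Both partner genes were named after their values were seen, and neither was called between regions (edgeR, adjusted p of 0.270 for Cryab and 0.368 for Flnc at 10 months).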
